A study of Mus musculus with 56 samples.

Results

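Spinal motor neurons carry the Chat gene, and in Chat bacTRAP mice a bacterial artificial chromosome with the Chat locus drives a ribosomal protein fused to EGFP, so that ribosomes of cholinergic neurons can be pulled down with their mRNA. The genes described here are those whose mRNA was higher in that pulldown than in the cord it came from, and they were compared between A315T mice and Chat bacTRAP mice at 14 weeks of age. A gene was taken as enriched where its mean CPM (the read count scaled to the total of the library) over 5 TRAP libraries of A315T mice at 9 weeks was at least 2-fold its mean over 5 whole cord libraries of the same genotype and age. This gave 3043 of 43629 genes counted. Of these, 680 had no read in the 9-week cord libraries, which makes their ratio unbounded. A filter on low counts was passed by 1564 enriched genes, of 18838 genes tested in all, and 1479 enriched genes were not tested. Asph (184 CPM in TRAP against 92.1 CPM in cord) and Mrpl12 (157 against 78.5) lay just inside the threshold. Perp (6.23 against 3.12) and Nfkbie (12.4 against 6.20) lay just outside it. The genes were thus chosen by their 9-week CPM in A315T mice, and those values are a description. The rule itself read no 14-week library, but it read A315T mice alone, and a choice from Chat bacTRAP mice is given in the last section. The filter on low counts read all 56 libraries.

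Every mouse carried the Chat bacTRAP transgene, line DW167, and the BAC also holds Slc18a3, which sits inside the Chat locus. The A315T group (TDP43MUT in the sample names) carried in addition human TDP-43 with the A315T mutation, line 95, under the mouse prion promoter, which is active in many cell types and not in motor neurons alone. Chat bacTRAP mice (WT in the sample names) carried no TDP-43 transgene. A further group carried wild-type human TDP-43, line 3c, under the same promoter. At 14 weeks there were 4 TRAP and 4 cord libraries of A315T, 4 TRAP and 5 cord libraries of Chat bacTRAP, and 5 TRAP libraries of hTDP-43 WT. The labels give cervical spinal cord, the study describes female mice at an age after the onset of motor signs, and each transgene was present in a single line.

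TDP-43 is an RNA-binding protein that is mainly nuclear, regulates splicing and RNA stability, and is mislocalised to the cytoplasm in most patients with amyotrophic lateral sclerosis (ALS). Motor neurons, which are lost in that disease, are large cholinergic cells with long axons, rich in neurofilament and mitochondria, and their identity is kept by homeodomain factors such as Mnx1 and Isl1. TRAP reads ribosome-bound mRNA, so a value here is a share of captured mRNA and not a protein level.

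The libraries of the 2 groups were not alike in depth or purity. A315T libraries held 43349586, 22214724, 12271054 and 20624148 counted reads, and Chat bacTRAP libraries 26286879, 2414523, 19553070 and 4801258, replicates 1 to 4. Of the 1564 genes, 90 to 155 had no read in an A315T library, against 406, 539, 469 and 196 in the Chat bacTRAP libraries, so that the deep replicates 1 and 3 held more zeros than replicate 4. The 20 oligodendrocyte markers took 0.213% to 0.261% of reads in A315T and 0.354% to 2.07% in Chat bacTRAP. The highest control was replicate 1, and the next was at 0.531%. By the test below 12 of the 20 were lower in A315T, beside 5.17% of all genes tested. The 37 mitochondrially encoded genes took 0.0977% to 0.151% against 0.465% to 5.81%. Replicate 1 was again the highest control, and the next was at 0.802%. Neither list overlapped between the groups, and 14 of the 37 had no read in all 8 libraries. Astrocyte markers (8 of 14 lower) and skeletal muscle markers (8 of 11 lower) moved the same way, beside the same 5.17%. No marker list had a member that rose, and the part of this RNA in the results was not tested. In bulk libraries of this kind, fewer cells of a type and less RNA per cell cannot be told apart. The pseudogene Gm13886 was read at 4.36 to 9.53 CPM in the 4 A315T libraries, while 3 Chat bacTRAP libraries had 0 reads and replicate 4 had 11, which is 2.29 CPM. Chat bacTRAP replicate 4 also held 245 reads of the Y-linked gene Ddx3y, against 2 in replicate 2 and 0 in the other 6 libraries. A315T replicate 3 and hTDP-43 WT replicate 5 differed by a mean chi-square of 1.30 per gene, the lowest of all pairs of TRAP libraries, although their labels give different genotypes. The next pair, at 1.84, was A315T replicate 5 and Chat bacTRAP replicate 4 of 9 weeks, and the one after it was at 4.37. The pseudogene Lamr1-ps1 had 432 reads in that hTDP-43 WT library, which is 1.69 CPM of 255802240 reads. It had 258 in that 9-week Chat bacTRAP library, which is 1.34 CPM of 192686637 reads. The other libraries of both groups had 0, while every A315T TRAP library had 12 to 51 (0.480 to 2.93 CPM). Gm13886 stood at 9.71 CPM in that hTDP-43 WT library and 9.33 CPM in that 9-week Chat bacTRAP library, the level of A315T. With replicate 3 of hTDP-43 WT at 9 weeks, 3 control TRAP libraries thus hold Lamr1-ps1 reads at the level of A315T, against their labels. The 8 libraries of the main comparison include none of the 3. Without them 153 enriched genes rose and 31 fell, and the share of all genes in that fit is not given here. Motor neuron markers were present in every library, as the values of Chat, Mnx1, Isl1, Slc5a7 and Prph below show.

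**Figure D1:**
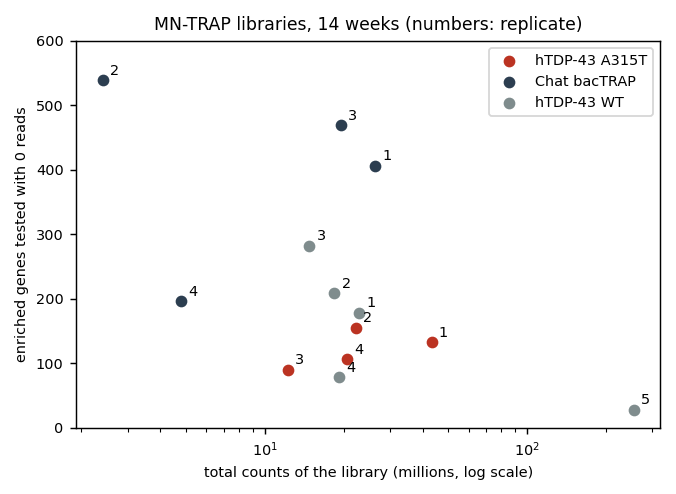
Number of the 1564 enriched genes with 0 reads (y) against the total count on a log axis (x) for each 14-week TRAP library, coloured by genotype and numbered by replicate. Chat bacTRAP libraries lie at 196 to 539 genes and A315T libraries at 90 to 155, and the 2 deep controls, replicates 1 and 3, lie above replicate 4.

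Most enriched genes were somewhat higher in the A315T TRAP libraries as a group, and few passed the test. With edgeR's quasi-likelihood test on all 56 libraries (adjusted p below 0.05 by Benjamini-Hochberg over 18838 genes, and a change of at least 2-fold), 129 of the 1564 genes rose (8.25%) and 25 fell (1.60%), while over all genes tested 5.24% rose and 5.17% fell, 10.4% in either direction. The median log2 change of the enriched genes was 0.36 (quartiles 0.03 and 0.98), beside 0.09 for all genes, and 76.3% of them were above 0, beside 56.6%. By library, the median log2 difference from the Chat bacTRAP mean was 0.42, 0.20, 0.32 and 0.26 in A315T. In Chat bacTRAP it was -0.26, -0.06, 0.00 and 0.21, replicates 1 to 4. The groups thus overlapped, with Chat bacTRAP replicate 4 above A315T replicate 2. With the 25 TRAP libraries alone no enriched gene passed by edgeR, 180 had an unadjusted p below 0.05, and 12 rose by DESeq2. None passed by limma-voom on all 56 libraries, where 157 had an unadjusted p below 0.05. Without Chat bacTRAP replicate 1 there were 49 rises and without replicate 4 there were 254. The median log2 changes in those fits were 0.27 and 0.48, beside 0.16 and 0.11 for all genes. Falls numbered 13 without A315T replicate 1 and 11 without replicate 2. The share of all genes called in these refits is not given here, so the counts do not show whether other genes moved alike. When the libraries were scaled on the enriched genes themselves, the median became 0.07 and that of all genes -0.21, so the upward shift is one relative to the rest of the captured mRNA.

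Calls were more frequent among genes of low level. Among the 775 enriched genes with a mean of at least 5 normalised CPM over the 8 libraries, 16 rose and 2 fell, the median log2 change was 0.27, and that of the 10830 genes of the same level was 0.08. The background at that level was 1.04% risen and 2.82% fallen. All 4 A315T libraries lay above all 4 Chat bacTRAP libraries in 70 of the 775 genes (9.03%, beside 5.99% of all genes of that level), and the opposite held in 1 gene (beside 1.82%). Over all 1564 genes the A315T libraries lay above in 118, beside 5.29% of all genes tested, and below in 2, beside 1.30%. A further 397 genes at 0.5 to 5 CPM gave 47 rises and 14 falls, with a median of 0.37, beside 7.18% risen, 11.2% fallen and a median of -0.20 for all genes of that level. The 392 genes under 0.5 CPM gave 66 rises (16.8%) and 9 falls with a median of 2.07, beside 15.1% risen, 5.12% fallen and a median of 1.5 for all genes of that level. Of these 392, 106 genes had no read in any Chat bacTRAP library and 6 none in any A315T library. With those genes set to the bound that 3 reads over the group allow, the median of the lowest class was 1.23, and that of all 1564 genes 0.35. Of the 154 called genes, 104 had a mean under 1 CPM and 73 were protein coding. At 5 CPM and over, the median log2 change was 0.28 for 630 genes enriched 2- to 4-fold at 9 weeks (quartiles 0.09 and 0.51). It was 0.25 for 107 genes enriched 4- to 8-fold (quartiles -0.003 and 0.44). For 38 genes enriched 8-fold or more it was 0.13 (quartiles -0.19 and 0.31). These classes were made from the values of the rule, and the difference between them was not tested.

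**Figure D2:**
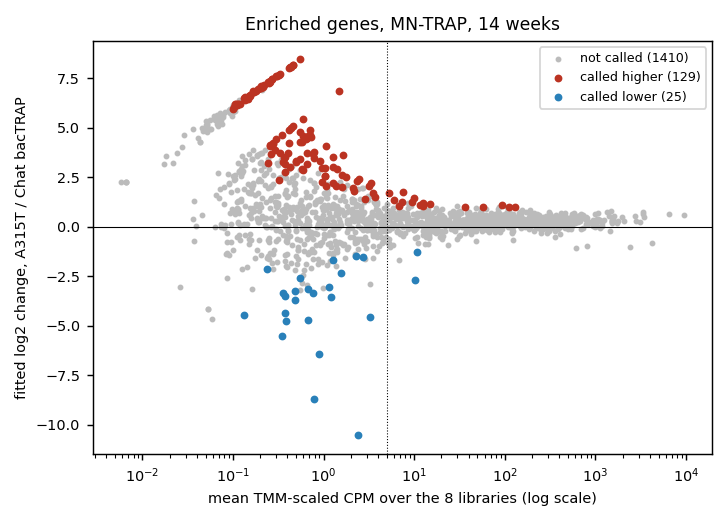
Log2 change between A315T and Chat bacTRAP TRAP libraries at 14 weeks (y) against mean CPM on a log axis (x) for the 1564 enriched genes tested, with called genes coloured. Large fitted changes lie at low level, and at 5 CPM and over the cloud narrows around a median of 0.27.

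There were 6 enriched genes that rose at 5 CPM or more with no overlap between the groups: Mnx1, Clba1, Nol3, Mrpl41, A2ml1 and A730046J19Rik. All rises were close to 2-fold. Mnx1, the homeodomain factor that specifies motor neurons and represses interneuron genes, lies at chr5:29473034-29478470 on the minus strand (GRCm38). It was read at 111, 61.1, 65.6 and 74.0 CPM in A315T (78.0 ± 22.8, SD, n = 4) and at 26.9, 18.5, 54.9 and 52.8 CPM in Chat bacTRAP (38.3 ± 18.3, SD, n = 4). Its lowest A315T library was thus above its highest control library by a small margin, and the log2 change was 1.01 (SE 0.24, adjusted p = 0.00401, edgeR). At 9 weeks, the values that chose it were 66.3 CPM in TRAP and 5.12 CPM in cord.

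Clba1, a protein with a clathrin-binding box (chr12:112808937-112816252, plus strand), was read at 57.8, 40.9, 48.6 and 48.6 CPM in A315T and 14.5, 22.2, 31.4 and 29.5 CPM in Chat bacTRAP. The A315T libraries were close together, and the log2 change was 1.01 (SE 0.22, adjusted p = 0.00273, edgeR). Nol3, which in human and mouse cells represses apoptosis through its caspase recruitment domain (chr8:105276140-105281939, plus strand), was read at 225, 119, 159 and 198 CPM against 48.4, 70.3, 117 and 110.5 CPM. Its groups came within a few CPM of each other, with a log2 change of 1.02 (SE 0.30, adjusted p = 0.0203, edgeR). Mrpl41, a protein of the large subunit of the mitochondrial ribosome (chr2:24974117-24975098, minus strand), was read at 264, 98.0, 128 and 106 CPM against 60.0, 52.6, 84.2 and 96.4 CPM. Replicate 1 of A315T was far above the others, and the log2 change of 1.02 (SE 0.25, adjusted p = 0.00579, edgeR) became 0.59 without it.

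A2ml1, a relative of the protease inhibitor alpha-2-macroglobulin (chr6:128539821-128581608, minus strand), was read at 189, 114, 119 and 82.7 CPM in A315T and 61.5, 51.8, 47.5 and 75.7 CPM in Chat bacTRAP. A315T replicate 4 was near the highest control, and the log2 change was 1.10 (SE 0.32, adjusted p = 0.0185, edgeR). A730046J19Rik, a gene annotated as protein coding that has no name beyond its clone (chrX:144153695-144166274, plus strand), was read at 12.2, 22.7, 29.5 and 18.7 CPM against 9.23, 7.81, 11 and 9.47 CPM. The controls were tight and the A315T libraries spread widely, with a log2 change of 1.13 (SE 0.33, adjusted p = 0.0183, edgeR). None of the 6 was called with the 25 TRAP libraries alone, where log2 changes were 0.94 to 1.08 and adjusted p 0.224 to 0.266 (edgeR), nor under scaling on the enriched genes (log2 changes 0.70 to 0.84). Of the 6, 1 was called by DESeq2 on all libraries, 1 under median-ratio scaling, 1 with a covariate for RNA of other cells, 1 without A315T replicate 1 and 1 without Chat bacTRAP replicate 1, and their log2 changes in these fits ran from 0.59 to 1.32.

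**Figure D3:**
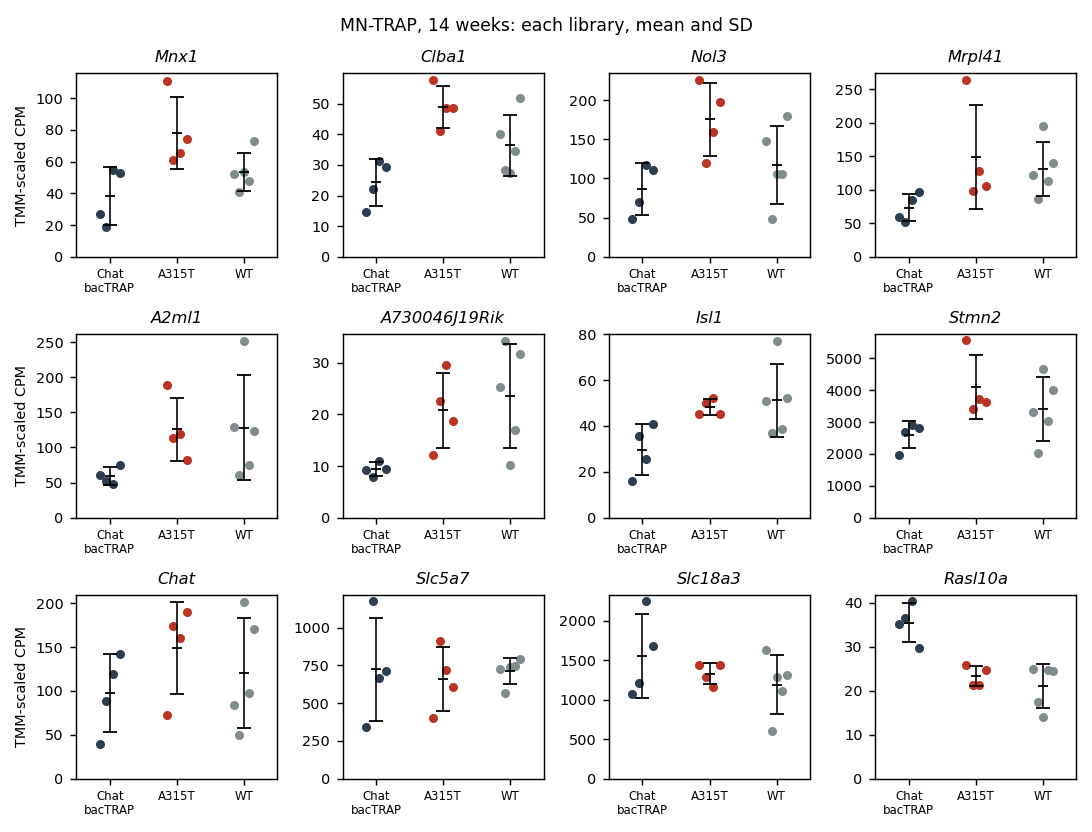
Normalised CPM in each 14-week TRAP library (points) with the mean and SD (bars) for 12 enriched genes in Chat bacTRAP, A315T and hTDP-43 WT mice, each axis starting at 0. The first 6 panels are the genes that rose without overlap, and Slc5a7, Slc18a3 and Chat show overlapping groups. The hTDP-43 WT points include replicate 5, which holds Lamr1-ps1 reads.

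The promoters of 3 of these genes, which differ in function, are shown because the genes rose with no overlap between the groups. Each is the RefSeq window of 250 bases before to 50 after the gene's start (GRCm38.p6), 5′ to 3′ on the gene's strand. Capitals mark a match to CACGTG (E-box), TGACGT (core of the CRE) or CCGGAA (core of ETS sites), searched on both strands.
Mnx1 promoter, chr5:29478421-29478720, minus strand: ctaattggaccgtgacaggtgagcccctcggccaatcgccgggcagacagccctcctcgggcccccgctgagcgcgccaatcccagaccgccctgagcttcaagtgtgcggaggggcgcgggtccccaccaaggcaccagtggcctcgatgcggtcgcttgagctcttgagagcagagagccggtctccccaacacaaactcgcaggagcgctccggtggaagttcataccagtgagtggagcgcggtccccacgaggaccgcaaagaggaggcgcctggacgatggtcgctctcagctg
Mrpl41 promoter, chr2:24975049-24975348, minus strand: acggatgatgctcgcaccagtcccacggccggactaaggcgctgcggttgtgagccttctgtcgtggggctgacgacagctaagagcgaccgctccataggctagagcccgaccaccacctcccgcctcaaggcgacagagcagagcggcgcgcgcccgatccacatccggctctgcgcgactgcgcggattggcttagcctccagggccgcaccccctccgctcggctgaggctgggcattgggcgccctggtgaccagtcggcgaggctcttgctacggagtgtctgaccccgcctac
Clba1 promoter, chr12:112808725-112809024, plus strand: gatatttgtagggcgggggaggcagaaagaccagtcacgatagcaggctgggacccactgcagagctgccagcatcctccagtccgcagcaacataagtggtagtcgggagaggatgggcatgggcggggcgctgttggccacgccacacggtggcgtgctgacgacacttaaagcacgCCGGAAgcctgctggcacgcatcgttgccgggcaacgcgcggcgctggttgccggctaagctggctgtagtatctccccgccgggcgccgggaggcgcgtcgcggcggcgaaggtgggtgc
Only the Clba1 window held a match, to CCGGAA. Of the 129 genes that rose, 65 had a promoter in the table, and 7.69% of these held CACGTG, 4.62% TGACGT and 4.62% CCGGAA. The shares were 8.36%, 8.76% and 19.2% over 993 enriched genes tested, and 7.24%, 7.64% and 15.2% over all 27025 promoters. These are descriptions of letters in a window and not binding sites.

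The other 10 rises at 5 CPM and over had groups that overlapped, in most through Chat bacTRAP replicate 4. Slco5a1, a member of the organic anion transporter family, was read at 19, 4.92, 14.9 and 7.98 CPM in A315T and 4.12, 0.411, 1.71 and 7.36 CPM in Chat bacTRAP (log2 change 1.75, SE 0.38, adjusted p = 0.00236, edgeR). It was the largest of the 16 rises and was called without any 1 of the 8 libraries. Zfp995, a zinc finger gene, was read at 13.7, 8.5, 4.87 and 5.27 CPM against 1.10, 1.23, 2.67 and 5.26 CPM (log2 change 1.68, adjusted p = 0.00501, edgeR). Gm10687, annotated as antisense and overlapping the end of Mcam, was read at 7.23, 17.5, 17.3 and 15.1 CPM against 4.29, 3.29, 0.747 and 13.5 CPM (log2 change 1.44, adjusted p = 0.0095, edgeR). Zfp995 and Gm10687 were also called in all 8 of these fits, and reads of Gm10687 and Mcam cannot be told apart where they overlap, since the counting did not use strand. Taf1d, a subunit of the selectivity factor of RNA polymerase I, was read at 16.2, 18.7, 14.6 and 17.6 CPM against 5.55, 9.04, 3.84 and 15.8 CPM (log2 change 1.03, SE 0.36, adjusted p = 0.0459, edgeR). It was called in 1 of the 8 fits that left out a library. The remaining 6 were Rem2, a small GTPase that binds calcium channel subunits, Slc25a24, a mitochondrial ATP carrier, the defensin gene Defb42, and the clone-named genes C230004F18Rik, 5930412G12Rik and 1700030C10Rik, with log2 changes from 1.06 to 1.35.

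Cholinergic genes did not pass the test in either direction. Chat, which makes acetylcholine, was read at 72.7, 174, 160.3 and 189.5 CPM in A315T and 39.5, 88.4, 119 and 142 CPM in Chat bacTRAP. The groups overlapped, with replicate 1 lowest in both (log2 change 0.62, SE 0.41, adjusted p = 0.321, edgeR). Slc5a7, the choline transporter, was read at 401, 909, 719 and 606 CPM against 344, 1176, 667 and 711 CPM (log2 change -0.13, SE 0.31, adjusted p = 0.823, edgeR). Slc18a3, the vesicular acetylcholine transporter, was read at 1435, 1286, 1159 and 1431 CPM against 1075, 1204, 2242 and 1683 CPM (log2 change -0.22, SE 0.34, adjusted p = 0.713, edgeR). Slc18a3 lies in an intron of Chat and is also present on the BAC in every mouse, so its reads come from native and transgene copies together. With Prima1, which anchors acetylcholinesterase, and Slc10a4, a vesicle protein, the 5 enriched cholinergic genes had a median log2 change of -0.05.

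Among 17 motor neuron transcription factors, 7 were enriched and all 7 were above 0, with a median log2 change of 0.56 and 1 call, Mnx1. Under scaling on the enriched genes 6 of the 7 were above 0, the median was 0.26, and Mnx1 was not called. Isl1, the LIM homeodomain partner of Lhx3 in motor neuron specification, was read at 45.3, 49.9, 52.3 and 45.3 CPM in A315T and 16.1, 35.8, 25.6 and 41.0 CPM in Chat bacTRAP. The groups did not overlap, and the log2 change of 0.72 (SE 0.25, adjusted p = 0.0431, edgeR) was under 2-fold. Isl2, its paralogue, was read at 44.8, 23.9, 22.1 and 30.6 CPM against 12.7, 54.2, 12.4 and 36.4 CPM, which is no separation (log2 change 0.12). Lhx4 had a log2 change of 0.44, Lhx3 of 0.55, and Bcl6, a repressor, of 0.56 with no overlap between groups (adjusted p = 0.0691, edgeR). Tbx20, a T-box factor, had no read in 3 Chat bacTRAP libraries and 5.05 CPM in replicate 4, beside 0.139 to 7.20 CPM in A315T.

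Genes that mark motor neuron subtypes or their vulnerability gave no call. Of 21 such genes 13 were enriched, the log2 changes ran from -0.13 to 0.37, and their median of 0.15 became -0.15 under scaling on the enriched genes. Mmp9, a protease of fast motor neurons that are lost early in ALS mice, was read at 66.2, 61.7, 60.9 and 67.7 CPM against 57.5, 56.7, 69.2 and 54.7 CPM. Chodl, another marker of fast motor neurons, was read at 491, 485, 480.3 and 406 CPM against 289, 512, 406 and 432 CPM. Both pairs of groups overlapped, with log2 changes of 0.11 and 0.19. Ret, a receptor for GDNF family ligands, was read at 509, 479, 526 and 545 CPM against 371, 583, 743 and 560.1 CPM (log2 change -0.13).

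Of the 5 neuronal intermediate filament genes 4 were enriched, with a median log2 change of 0.57 (0.25 under scaling on the enriched genes) and no call. Nefl, the light neurofilament, was read at 19069, 8518, 9412 and 9195 CPM in A315T and 7095, 7787, 8954 and 6624 CPM in Chat bacTRAP (log2 change 0.60, SE 0.21, adjusted p = 0.0502, edgeR). A315T replicate 1 was more than 2-fold the next library, and the other 3 overlapped the controls. Nefm, the medium neurofilament, was read at 9422, 7319, 7587 and 7761 CPM against 3904, 5521, 5513 and 5228 CPM, with no overlap (log2 change 0.67, adjusted p = 0.0539, edgeR). The annotated bounds of Nefm span Nefl on the opposite strand, and their reads cannot be told apart where they overlap. Prph, the peripherin of motor and sensory neurons, was read at 2694, 1078, 1249 and 1619 CPM against 801, 1102, 1525 and 1148 CPM, and Nefh, the heavy neurofilament, had a log2 change of 0.27.

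Of 21 genes of the axon injury response 10 were enriched, with a median log2 change of 0.51 (0.20 under scaling on the enriched genes) and no call. Stmn2, a microtubule regulator whose human pre-mRNA is spliced under the control of TDP-43, was read at 5578, 3421, 3730.2 and 3642 CPM in A315T and 1973, 2693, 2904 and 2810.2 CPM in Chat bacTRAP. All 4 A315T libraries were above all controls, and the log2 change of 0.66 (SE 0.18, adjusted p = 0.0123, edgeR) was under 2-fold. Sprr1a, which rises in regenerating neurons, was read at 5.48, 4.55, 4 and 3.55 CPM against 1.80, 1.23, 0 and 4.21 CPM (log2 change 1.35, adjusted p = 0.169, edgeR). Gal, the neuropeptide galanin, was read at 63.8, 11.3, 31.1 and 53.7 CPM against 4.78, 2.47, 20.0 and 49.9 CPM, a spread within each group larger than the difference between them. Jun, the transcription factor of the injury response, had a log2 change of 0.46, Ecel1 of -0.29 and Cartpt of -0.22.

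Of 25 genes mutated in familial ALS 2 were enriched and neither was called. Sqstm1, the autophagy receptor p62, was read at 1456, 2069.7, 1825 and 1482 CPM in A315T and 702, 944, 939.8 and 1479.6 CPM in Chat bacTRAP (log2 change 0.75, SE 0.23, adjusted p = 0.0242, edgeR). Chat bacTRAP replicate 4 was at the level of the lower A315T libraries. Sod1, superoxide dismutase, was read at 1167, 565, 700.1 and 818 CPM against 452, 529, 525 and 620.3 CPM (log2 change 0.61, adjusted p = 0.0775, edgeR). Mouse Tardbp was not enriched, and no gene of the ALS-linked RNA-binding proteins, the integrated and ER stress response, the p53 targets or the aminoacyl-tRNA synthetases was.

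Nuclear genes for mitochondria made up the largest list. Of 81 tested subunits of oxidative phosphorylation 40 were enriched, 37 of the 40 were above 0, none was called, and the median log2 change was 0.30. Under scaling on the enriched genes the median was -0.02 and 19 were above 0. Ndufb3, a subunit of complex I, was read at 601, 286, 320.4 and 314 CPM in A315T and 248, 232, 233 and 271 CPM in Chat bacTRAP, with no overlap (log2 change 0.63, adjusted p = 0.027, edgeR). Atp5j, a subunit of ATP synthase, was read at 1052, 779.6, 827 and 748 CPM against 446, 560.1, 456 and 692 CPM (log2 change 0.66, adjusted p = 0.0362, edgeR). Both were under 2-fold. Cox6c2, a copy of a cytochrome oxidase subunit gene, was read at 8.63 CPM in Chat bacTRAP replicate 2 and at 1.04 CPM or less in the other 7 libraries, and its fitted log2 change was -1.99 (adjusted p = 0.111, edgeR).

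Of 75 tested mitochondrial ribosomal proteins 17 were enriched, 16 of these were above 0 and Mrpl41 was called, with a median log2 change of 0.50 (0.18 under scaling on the enriched genes, with 14 above 0). Mrps25, of the small subunit, was read at 278, 128, 167 and 172 CPM against 122, 76.4, 133 and 137 CPM, where A315T replicate 2 overlapped the controls (log2 change 0.66, adjusted p = 0.0193, edgeR). The 11 enriched cytosolic ribosomal proteins had a median of 0.28 and no call, and that median became -0.05 under scaling on the enriched genes. Of 61 genes of ribosome assembly and RNA polymerase I 10 rose and none fell, beside 5.24% and 5.17% of all genes tested. Among them 4 were enriched, and 1 of the 4, Taf1d, was among the 10. Polr3g and Polr3k, subunits of RNA polymerase III, had log2 changes of 0.58 and 0.64 (adjusted p = 0.0699 and 0.0799, edgeR), and 3 of the 32 genes of that list rose, beside the same 5.24%.

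Of the smaller lists none had a call among enriched genes. The 4 genes of axonal transport, among them the kinesin light chain Klc1 and the beta-tubulin Tubb3, had a median log2 change of 0.40, and the 4 heat shock genes one of 0.40 too. Under scaling on the enriched genes these medians were 0.12 and 0.10. Among the heat shock genes Bag3, a co-chaperone in the clearance of damaged proteins, was read at 667, 236, 289 and 278 CPM against 229, 258, 321 and 306 CPM, so that only A315T replicate 1 stood out. The 3 enriched receptors were Grin3b, an NMDA receptor subunit, Adra1d, an adrenergic receptor, and Chrna3, a nicotinic receptor subunit, with log2 changes from 0.59 to 1.23. Kcnk3, the only enriched channel of 44, had one of -0.11 and Syt4, the only enriched gene of 29 for vesicle release, one of 0.33.

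**Figure D4:**
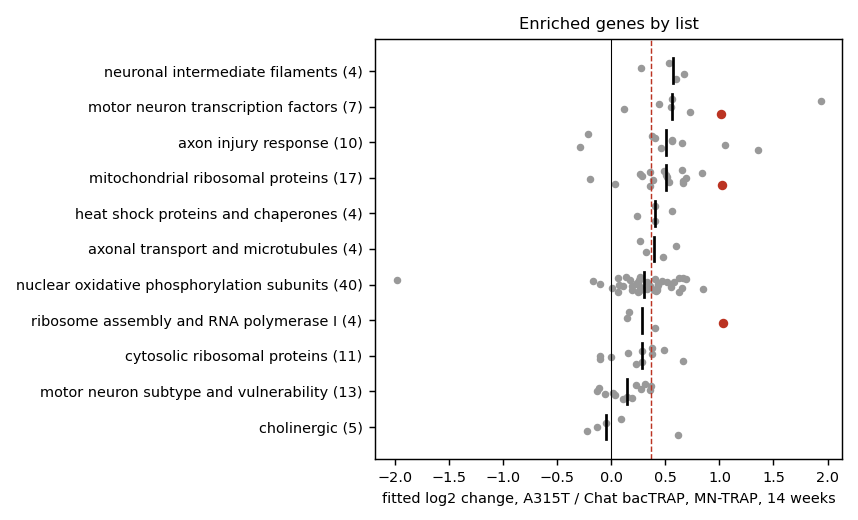
Log2 change between A315T and Chat bacTRAP TRAP libraries for the enriched genes of each list with 4 or more of them (points, called genes in red), with the median of the list (black bar) and that of all 1564 enriched genes (dashed line at 0.36). The cholinergic list is centred near 0. The medians of the transcription factor, filament, axon injury, mitochondrial ribosome, axonal transport and heat shock lists lie above the dashed line.

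Many rises were of genes that had no read in the controls. Of the 129, 81 had no read in at least 3 Chat bacTRAP libraries, 79 had none in either deep library (replicates 1 and 3), and 43 had none in any. Their fitted changes depend on the prior count, so the fold is given as a bound against 3 reads over the group's summed depth, which covers counting error only. Trim58, an E3 ubiquitin ligase, had 23, 7, 11 and 26 reads in A315T and was at least 12-fold higher. Fgf21, a secreted hormone of the FGF family that mitochondrial and nutrient stress induces in other tissues, had 25, 21, 5 and 10 reads and was at least 11-fold higher. Nlrp10, of the NLR family, had 19, 46, 7 and 7 reads (at least 14.2-fold), and Slc15a1, an oligopeptide transporter, had 8, 11, 10 and 7 reads (at least 6.47-fold). Ppp3r2, a calcineurin B subunit known from testis, had 15, 14, 18 and 20 reads and was at least 12-fold higher. All 5 were named after their values were seen, and all 5 were called without any 1 of the 8 libraries. None of the 5 was called with the 25 TRAP libraries alone (adjusted p 0.16 to 0.22, edgeR) or by limma-voom (adjusted p 0.38 to 0.69). In all, 36 rises and 2 falls were called in each of the 8 fits that left out a library, and the same count over all genes is not given here. In cord the means of these 5 genes were under 1 CPM in both genotypes. Means in 14-week hTDP-43 WT, replicate 5 included, were 0.63, 0.67, 0.60, 0.44 and 1.33 CPM for Trim58, Fgf21, Nlrp10, Slc15a1 and Ppp3r2. In A315T they were 0.83, 0.67, 0.92, 0.49 and 0.92 CPM in that order. In Chat bacTRAP at 9 weeks, replicate 4 included, they were 1.19, 0.27, 0.50, 1.10 and 0.39 CPM. The hTDP-43 WT and the 9-week Chat bacTRAP groups thus held reads of all 5 genes.

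Among the 25 falls, no gene separated the groups, and in 16 the highest Chat bacTRAP library was at least 3-fold the next. Gm10800, a predicted gene, was read at 5.95, 1.39, 2.09 and 1.77 CPM in A315T and 19, 8.63, 42.3 and 1.68 CPM in Chat bacTRAP (log2 change -2.68, adjusted p = 0.0182, edgeR). Meig1, known for its role in spermatid differentiation, was read at 6.07, 7.43, 6.08 and 4.85 CPM against 9.03, 43.1, 4.86 and 3.79 CPM, so replicate 2 alone carried its fall (log2 change -1.25, adjusted p = 0.0433, edgeR). These were the 2 falls at 5 CPM and over. Gm10717, another predicted gene, had no read in A315T and 1, 34, 100 and 0 reads in Chat bacTRAP. By the summed counts it was at least 83.5-fold lower in A315T, but replicates 2 and 3 held nearly all of those reads. Chat bacTRAP replicates 1 and 4 were thus close to A315T. The 9-week values that chose it were 0.0217 CPM in TRAP and 0 CPM in cord. Reads of such predicted genes can be split among near-identical copies. Rasl10a, a Ras-like GTPase, was the 1 gene at 5 CPM and over that lay lower in all A315T libraries, at 25.7, 21.4, 21.3 and 24.7 CPM against 35.2, 36.6, 40.4 and 29.7 CPM, and it did not pass the test (log2 change -0.61, SE 0.29, adjusted p = 0.143, edgeR).

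In whole cord of the same age the enriched genes hardly differed by edgeR or DESeq2. None of the 1564 passed by edgeR (42 had an unadjusted p below 0.05, the lowest adjusted p was 0.892, and 0 passed by DESeq2), beside 0.0212% of all genes, and the median log2 change was 0.00. With limma-voom 40 passed, 16 of them higher. The share of all genes by that method is not given here, so the 40 cannot be set against it. Mnx1 was read at a mean of 4.51 CPM in 4 A315T cords and 4.28 CPM in 5 Chat bacTRAP cords, and Isl1 at 3.91 and 3.87 CPM.

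The difference between the TRAP and the cord comparison was tested as an interaction, with TRAP and cord libraries treated as independent. It passed in 28 genes in the direction of TRAP and 1 in the opposite (adjusted p below 0.05, edgeR), beside 1.18% and 0.536% of all genes. Of the 29, 10 had no read in any Chat bacTRAP TRAP library and 3 had a mean of 5 CPM or more. Without Chat bacTRAP TRAP replicate 1 there were 11, without replicate 3 there were 12 and without replicate 4 there were 148. Shares of all genes in these refits are not given here. The 3 genes of 5 CPM or more were Slco5a1 (difference of log2 changes 1.91, adjusted p = 0.0356), Selenok, a selenoprotein of the endoplasmic reticulum (1.22, adjusted p = 0.0342), and Ccn3, a matricellular protein (1.85, adjusted p = 0.0468, all edgeR). Selenok was read at 498, 263, 318 and 265 CPM in A315T TRAP and 266, 258, 166 and 239 CPM in Chat bacTRAP TRAP, and at means of 85.6 and 137 CPM in cord, so the cord was lower in A315T while TRAP was not. For the 6 genes that rose without overlap the interaction was positive and did not pass, from 0.60 for Nol3 to 1.32 for A730046J19Rik.

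**Figure D5:**
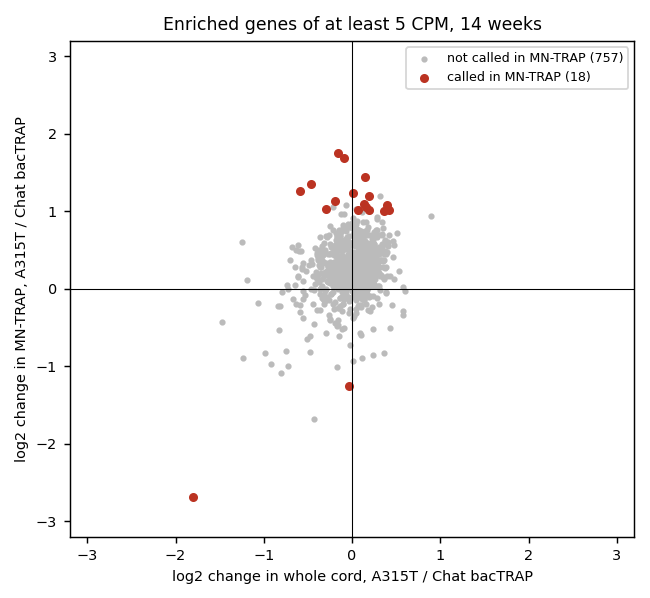
Log2 change between A315T and Chat bacTRAP at 14 weeks in TRAP (y) and in whole cord (x) for the 775 enriched genes of at least 5 CPM, with the 18 called in TRAP in red. Most points lie above 0 on the TRAP axis, where their median is 0.27, and spread to both sides of 0 on the cord axis.

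The hTDP-43 WT libraries gave values beside these, and both comparisons share the same 4 Chat bacTRAP libraries. Replicate 5 of hTDP-43 WT is the library that holds Lamr1-ps1 reads, so counts are given with and without the 3 such control libraries. Measured against Chat bacTRAP, the hTDP-43 WT libraries had 182 enriched genes higher and 41 lower, with backgrounds of 9.41% and 3.78% and a median log2 change of 0.34. Without the 3 libraries these were 190 and 57 of 1660 tested, with backgrounds of 10.3% and 4.11% and a median of 0.30. Between A315T and hTDP-43 WT, 11 were higher and 25 lower in A315T, with backgrounds of 0.69% and 4.67% (5.36% in either direction) and a median of 0.07. Without the 3 libraries 59 were higher and 43 lower, with backgrounds of 2.04% and 8.30% and a median of 0.12, so this comparison depends on these libraries. A2ml1 was read at 61.2 to 251 CPM in hTDP-43 WT replicates 1 to 4 and at 124 CPM in replicate 5, and Slco5a1 at 7.01 to 13.7 CPM and 14.6 CPM. Mnx1 was read at 40.7 to 53.7 CPM in replicates 1 to 4 and at 72.8 CPM in replicate 5, which was the highest of the 5. Its log2 change with all 5 libraries was 0.47 against Chat bacTRAP and 0.54 between A315T and hTDP-43 WT, neither past the test.

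At 9 weeks the A315T libraries helped to choose the genes, so a higher level there is partly set by the rule and is given as a description. None of the 1564 genes was called between A315T and Chat bacTRAP TRAP at that age (84 had an unadjusted p below 0.05 by edgeR), beside 0.00531% of all genes higher and 0.536% lower, and the median log2 change was 0.18. Among the 4 Chat bacTRAP libraries of that age, replicate 4 holds Lamr1-ps1 reads at the level of A315T. Without the 3 such control libraries 12 of 1660 enriched genes were higher and 0 lower (210 had an unadjusted p below 0.05), beside 0.323% and 3.63% of all genes, and the median was 0.25. Mnx1 was read at means of 77.8 and 58.0 CPM and Clba1 at 46.3 and 40.7 CPM in A315T and Chat bacTRAP, with replicate 4 in the control means. At 14 weeks 1229 of the 1564 genes (78.6%) were again at least 2-fold above cord in A315T, 994 (63.6%) in Chat bacTRAP and 1092 (69.8%) in hTDP-43 WT. For the 764 genes of at least 5 CPM in the TRAP libraries that chose them, the numbers were 690, 603 and 592. The median log2 ratio of TRAP over cord for these genes was 1.40 to 1.45 in the A315T libraries and 0.94, 1.40, 1.44 and 1.51 in the Chat bacTRAP libraries, so replicate 1 of the controls was the least enriched, and the share of this in the results was not tested.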

How the data were processed

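Per the labels, RNA from affinity-purified ribosomes (TRAP) and from whole cord was sequenced, and the authors aligned reads to mm10 with STAR and counted them per gene with featureCounts, both at standard parameters by the methods of the study. The deposited files hold raw counts per Ensembl gene, 1 file a library. The default of featureCounts does not use strand. Symbols, biotypes and GRCm38 coordinates came from GENCODE, and 1167 of 43629 identifiers had no symbol.

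Counts of all 56 libraries in 12 groups were filtered by edgeR's filterByExpr, scaled by TMM and fitted with edgeR 4.0.16 (quasi-likelihood, R 4.3.3). A call needed a Benjamini-Hochberg adjusted p below 0.05 over all genes and a 2-fold change. CPM in the text are TMM-normalised, except those of the 9-week rule and of the pseudogene label check, which are raw. The SE is the log2 change over the root of F. DESeq2 1.42.0 and limma 3.58.1 were alternatives. The fit was tested on simulated data.

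Named genes were the largest rises and falls at 5 CPM and over without overlap, 2 enriched genes of lowest p from each list, genes the study names, and identity markers; any other gene was named after its values were seen. The enriched genes and the lists were chosen with earlier results of these data known. Labels number the replicates, and where libraries do not come from separate mice, p-values measure technical spread. Depth ran from 2414523 to 43349586 reads in the 8 libraries of the main comparison. Bounds and floors cover counting error only.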

Additional observations from a re-analysis of the deposited data

Results flagged for a closer look

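In 12 of 88 groups of samples examined for a lone extreme value, 1 library stood apart from the rest of its group. Chance gives about 1 in 20 for independent values, but these groups share the same 8 libraries. The 12 are thus a description and not a test. In A315T TRAP replicate 1 the value was 5578 CPM for Stmn2, 601 CPM for Ndufb3, 19069 CPM for Nefl, 931 CPM for Tuba1b and 667 CPM for Bag3, all above the other 3 libraries, and 78.6 CPM for Gfra1, below them. In A315T replicate 4 it was 18.8 CPM for Adra1d, and in Chat bacTRAP replicate 1 it was 41.3 CPM for Polr3g, the lowest of its group. For genes the study names that are not enriched, Chat bacTRAP replicate 4 stood above the other controls at 0.210 CPM for Syngr4, 0.421 CPM for Tex26 and 1.05 CPM for Mxd3. In that library 1 read is 0.210 CPM, so these values rest on very few reads and counting error could give them. A315T replicate 2 stood at 2.60 CPM for Mxd3. The difference between TRAP and cord was 8.32 on the log2 scale for Nhlh1 (adjusted p = 0.00413, edgeR), a neuronal helix-loop-helix factor with 22, 40, 8 and 21 reads in A315T TRAP and 0 reads in all 4 Chat bacTRAP libraries, at least 16.3-fold higher.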

How the results depend on the processing

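The median log2 change of the enriched genes stayed above 0 in every alternative, from 0.07 to 0.48. It was 0.0733 under scaling on the enriched genes and 0.0680 with no filter on low counts (3043 genes), and 0.21 with DESeq2 on the 25 TRAP libraries, an alternative chosen after seeing the data. There the calls were 12 higher and 0 lower. Calls numbered 0 higher and 0 lower with the 25 TRAP libraries alone, with the 8 TRAP libraries alone and with limma-voom, where 180, 97 and 157 genes had an unadjusted p below 0.05. With DESeq2 on all libraries they were 121 and 24. Scaling on the enriched genes gave 92 higher and 32 lower, a higher share of 74.2% beside 83.8%, and no filter gave 96 and 38 (71.6%). A covariate for RNA of other cells gave 71 and 13, enrichment at 4-fold 37 and 8, and leaving out Chat bacTRAP replicates 1 and 4 gave 185 and 49. Genes chosen from Chat bacTRAP libraries at 9 weeks gave 133 and 24 of 1599, beside 5.24% and 5.17% of all genes. Their median log2 change was 0.33, beside 0.09 for all genes. That choice includes the 9-week replicate 4 with Lamr1-ps1 reads. Leaving out 1 library at a time gave 49 to 254 higher and 11 to 29 lower in TRAP, and 11 to 148 genes for the difference between TRAP and cord. Deviations of same-numbered A315T and Chat bacTRAP TRAP libraries had r from -0.07 to 0.11, beside -0.13 to 0.08 for other numbers, and no pairing was used. By the study, a fraction of each lysate was kept as the cord sample. Whether TRAP and cord libraries pair by number was not tested. A replicate block, with 1 effect per replicate number shared by all 12 groups, gave 117 higher, 12 lower and 19 for the difference between TRAP and cord. It does not pair the TRAP and cord libraries of a mouse. Without the 3 control libraries that hold Lamr1-ps1 reads, an alternative chosen after seeing the data for these comparisons, A315T against hTDP-43 WT gave 59 higher and 43 lower and the 9-week comparison 12 higher. In cord, limma-voom called 40 genes and the 31 cord libraries alone 1. Of the 154 called genes, 117 were still called by DESeq2, 81 with the covariate and 55 without Chat bacTRAP replicate 1. Values of named genes lost a call in 122 cases, gained one in 3 and kept it or its absence in 737, and uncalled values changed sign in 12. For the alternative fits of the main comparison, of cord and of the difference between TRAP and cord, no share of all genes called is given here. Their counts thus do not show whether other genes moved alike. The cause of the differences between fits was not tested. In Chat bacTRAP replicate 2 the total of 2414523 reads limits what 0 reads can show.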
